A study of Mus musculus with 9 samples.

Results

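The amino acid transporter genes of the solute carrier families Slc1, Slc3, Slc6, Slc7, Slc36, Slc38 and Slc43 were followed in mouse yolk sac that had lost Rnh1. They were chosen by name alone, as a name of 1 of these 7 families followed by the letter a and a number. Each also needed a probe set that names a single gene, which gave 60 of the 19933 genes measured. The Slc6 genes Slc6a20a and Slc6a20b, whose names end in a letter, fell outside this rule and are not in the family counts. A gene with several probe sets was represented by the one that was brightest on average. Yolk sacs were taken at embryonic day 9.5 from embryos of a mixed SV 129/C57BL/6 background that were homozygous knockout (KO, Rnh1-/-), heterozygous (HET, Rnh1+/-) or wild type (WT, Rnh1+/+), with 3 samples of each genotype. The labels name no treatment, and each sample was hybridised to 1 Affymetrix whole-transcript gene array. The product of Rnh1 is a ribonuclease inhibitor of the cytosol, which holds enzymes of the RNase A family inactive. The labels give neither the part of Rnh1 that was deleted, nor embryo sex, nor how many yolk sacs went into each sample, nor whether replicates came from separate animals. The p-values therefore measure only the spread between these samples.

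Amino acids cross membranes through carriers that differ in substrate, in the ions that drive them and in the membrane where they sit. Slc1, Slc6 and Slc38 proteins use the sodium gradient, and Slc36 proteins such as Slc36a1 use protons. The Slc43 proteins Slc43a1 and Slc43a2 let neutral amino acids pass down their gradient, whereas Slc43a3 is known as a nucleobase carrier. Many Slc7 proteins are light chains that reach the membrane only when bound to a heavy chain of the Slc3 family. In rodents the visceral yolk sac feeds the embryo before the placenta is complete. Its endoderm takes up maternal protein by endocytosis and breaks it down in lysosomes, from which the amino acids are exported, and its brush border also carries transporters of the kind found in kidney and intestine.

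The arrays were set apart mainly by the KO genotype. On the first principal component (40.7% of variance) the KO arrays lay at 14.4 to 33.7 and the others at -26.4 to -1.44. KO 1 (-33.9) and WT 2 (-18.2) lay apart from the rest (0.197 to 24.4) on the second component, with 27.2% of the variance. Rnh1 itself read 6.28, 6.78 and 6.87 on the KO arrays, against 9.75, 9.75 and 9.77 on HET and 10.39, 10.42 and 10.32 on WT arrays (log2 signal), which follows the labels. Of the 12 visceral endoderm markers, 11 were tested and Alb was too dim on all 9 arrays, and the endoderm list averaged 11.09 to 11.35 in KO, 11.28 to 11.44 in HET and 11.33 to 11.39 in WT. Of the macrophage list, 3 of 5 genes were tested and 3 fell in KO, where 15.2% of all genes fell. Cd14 and Adgre1 were dim on all 9 arrays. The mean of the macrophage list was 6.78 to 7.0 in KO, 7.33 to 7.47 in HET and 7.29 to 7.43 in WT. Its part in the results was not tested. Xist read 10.56 to 11.67 on KO 1, KO 2, KO 3, HET 2, WT 2 and WT 3 and 5.15 to 5.76 on the other 3 arrays, and Y-linked Eif2s3y read 4.41 on KO 3, 4.34 on WT 3 and 7.27 to 8.81 on the others. Xist and Eif2s3y both read high on KO 1, KO 2, HET 2 and WT 2, so the Eif2s3y level does not stand for embryo sex. With the Eif2s3y level as a covariate, 3 transporters rose and 8 fell in KO against WT, where 21.2% of all genes were called.

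RefSeq start sites were found for 43 of the 60 transporter genes, 8 of them among the 12 genes called in KO. The 250 bases before the most upstream start are shown for 4 of these, the largest falls among those called without each single array in turn, so that their letters can be compared (GRCm38.p6, 5' to 3', written in the direction of transcription). Capitals mark the GC box GGGCGG and the GATA motif AGATAA on either strand.
Slc6a13, chr6:121300038-121300287, plus strand: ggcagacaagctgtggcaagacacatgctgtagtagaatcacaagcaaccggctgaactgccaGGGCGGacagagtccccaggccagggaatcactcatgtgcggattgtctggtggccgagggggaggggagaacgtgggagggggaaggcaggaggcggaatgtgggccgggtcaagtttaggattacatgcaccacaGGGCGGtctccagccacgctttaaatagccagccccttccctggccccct
Slc38a9, chr13:112660516-112660765, plus strand: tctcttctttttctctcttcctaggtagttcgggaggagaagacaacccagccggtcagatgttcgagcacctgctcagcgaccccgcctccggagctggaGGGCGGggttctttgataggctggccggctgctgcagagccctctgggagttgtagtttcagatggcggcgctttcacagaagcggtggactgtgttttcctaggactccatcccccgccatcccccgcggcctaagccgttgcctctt
Slc6a4, chr11:76998347-76998596, plus strand: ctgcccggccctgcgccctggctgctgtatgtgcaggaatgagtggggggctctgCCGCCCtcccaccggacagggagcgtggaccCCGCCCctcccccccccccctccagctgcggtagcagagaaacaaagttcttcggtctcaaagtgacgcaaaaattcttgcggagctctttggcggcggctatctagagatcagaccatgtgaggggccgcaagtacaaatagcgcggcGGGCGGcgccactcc
Slc7a9, chr7:35448842-35449091, plus strand: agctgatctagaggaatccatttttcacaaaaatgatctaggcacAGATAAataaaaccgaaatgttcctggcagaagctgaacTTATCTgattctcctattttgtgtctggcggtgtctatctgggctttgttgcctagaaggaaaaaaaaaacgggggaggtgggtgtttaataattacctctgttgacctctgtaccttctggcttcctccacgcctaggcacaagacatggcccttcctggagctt
Searches covered 300 bases, from 250 before to 50 after the start, on both strands. A GC box was present in 28 of the 43 transporter windows, and in 35.9% of the 27025 windows of all genes. Slc6a13, Slc38a9 and Slc6a4 each held at least 1. Slc7a9 held none and instead held AGATAA on both strands, a motif in 2 of 43 transporter windows and 11.4% of all windows. The letters TGATGNAA, the core of the element read by ATF4 and CHOP dimers, were found in 4 of 43 windows (Slc1a4, Slc6a21, Slc7a7 and Slc7a11) and in 4.06% of all windows. TGACTCA, the AP-1 motif, was in 5 of 43 (5.17% of all), CAAAGTCCA, an HNF4 motif, in 1 of 43 (0.474% of all), and the HNF1 motif in 0 of 43 (0.0074% of all). Such matches describe the letters of these windows only.

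Many of the transporter genes gave little signal in yolk sac. A gene was called dim on an array where its signal did not exceed that array's 40th percentile over all probe sets, a line that stood at 6.35 to 6.57. By this line 19 of 60 genes were dim on at least 5 of the 9 arrays, or, over all genes, 34.9%. Slc6, which holds many transporters of neurotransmitters, had 8 of 18 genes dim on most arrays, and Slc7 had 5 of 15. In Slc36 this was 2 of 4, in Slc1 2 of 7, in Slc3 1 of 2, in Slc38 1 of 11 and in Slc43 0 of 3. The genes dim on most arrays were the glutamate transporters Slc1a2 and Slc1a7, the heavy chain Slc3a1, the Slc6 genes Slc6a3, Slc6a5, Slc6a7, Slc6a11, Slc6a14, Slc6a15, Slc6a16 and Slc6a21, the Slc7 genes Slc7a11 to Slc7a15, the proton-coupled Slc36a2 and Slc36a3, and Slc38a11. Of these, 15 were dim on all 9 arrays. At the other end, 35 genes were above the line on every array.

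Genes above the line on at least 3 arrays were tested, which were 43 of the 60 transporter genes and 13207 genes in all. Slc6a3 (dim on 3 KO, 0 HET and 2 WT arrays) and Slc7a10 (dim on 2, 0 and 2) met this rule only through their HET arrays. Neither passed in any comparison. Genotypes were compared with limma, and a gene was called at a Benjamini-Hochberg adjusted p under 0.05 over all 13207 genes.

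**Figure D1:**
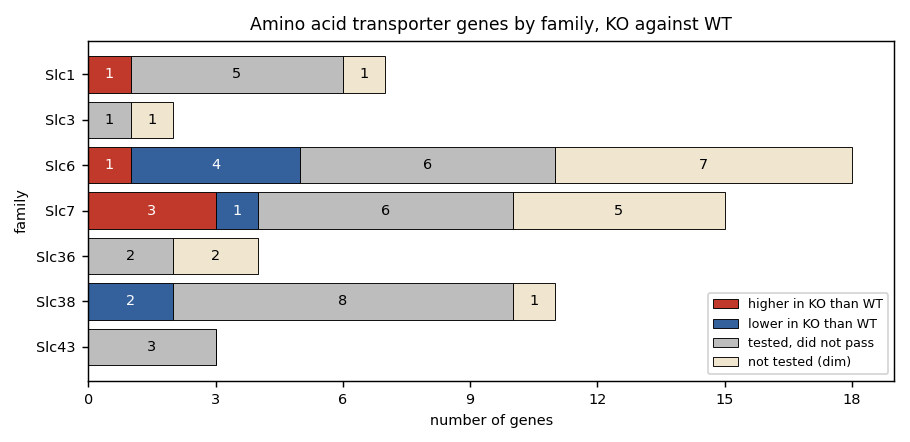
Number of amino acid transporter genes (horizontal axis) in each family (vertical axis), split by the limma test of 3 KO against 3 WT arrays. Slc6 holds 4 of the 7 genes lower in KO, Slc7 holds 3 of the 5 genes higher in KO, and the pale segments show the 17 genes that were too dim to test.

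In KO yolk sacs 5 transporter genes rose and 7 fell relative to WT, and 31 of the 43 tested did not pass. These 12 are 27.9% of the 43, and 23.5% of all genes tested were called, 8.27% higher and 15.2% lower, so the share of transporters called was near that of all genes. The falls were Slc6a13, Slc38a9, Slc6a4, Slc6a18, Slc6a19, Slc7a9 and Slc38a6. The rises were Slc1a5, Slc6a17, Slc7a3, Slc7a6 and Slc7a5, and they were smaller. Over the 43 genes the median log2 difference was -0.08, with 25 below 0, against a median of 0.00 over all genes with 50.8% below 0. By family, 4 of 11 tested Slc6 genes fell and 1 rose (median -0.56), 1 of 10 Slc7 genes fell and 3 rose (-0.03), 2 of 10 Slc38 genes fell and 0 rose (-0.01), and 1 of 6 Slc1 genes rose (0.02). Of the others, the 1 tested Slc3 gene (-0.12), the 2 tested Slc36 genes (-0.25) and the 3 Slc43 genes (-0.27) did not pass. Differences between families were not tested. The KO and WT arrays did not overlap in 6 genes that were higher and 9 that were lower in KO, 15 of 43 in all, against 15.8%, 24.7% and 40.5% of all genes. Yolk sac is a mixed tissue, and in such samples fewer cells of a type and less RNA per cell cannot be told apart.

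The counts moved when single arrays were left out, as did those of all genes, of which 12.6% (without WT 1) to 29.1% (without KO 1) were then called. The count of rises was 6 without KO 1, 1 without KO 2 or WT 2, 2 without KO 3, HET 1, HET 2 or WT 1, and 3 without HET 3 or WT 3. The count of falls was 12 without KO 1 and 6 to 8 without any other single array. The 7 genes called without each single array in turn were Slc1a5, Slc6a4, Slc6a13, Slc6a18, Slc7a9, Slc38a6 and Slc38a9. Without KO 1 and WT 2 together, 3 rose and 10 fell, and 7 of the 12 genes were again called, where 19.9% of all genes were called.

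**Figure D2:**
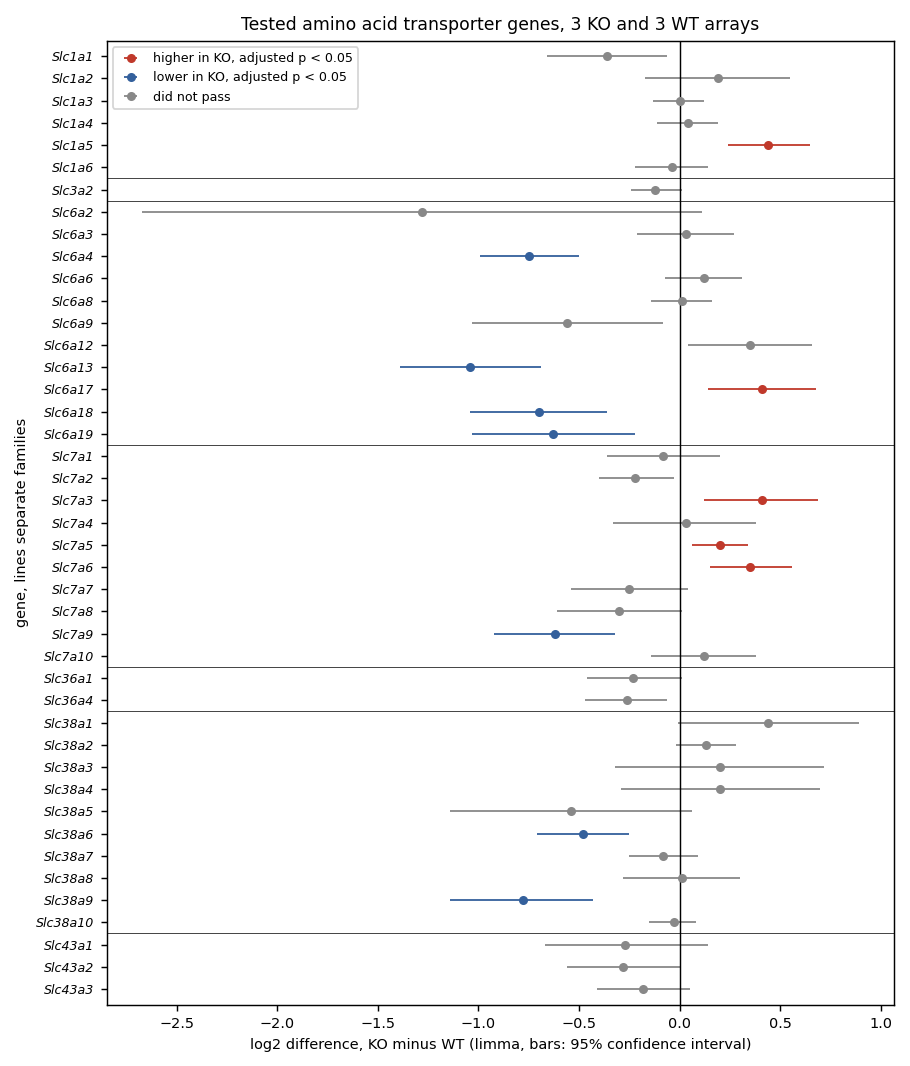
Log2 difference, KO minus WT, for the 43 tested transporter genes (horizontal axis, bars are 95% confidence intervals from limma), in family order with lines between families. Slc6a13 lies at -1.04 and Slc38a9 at -0.78 among the genes called lower, the genes called higher lie between 0.20 and 0.44, and Slc6a2 has the widest interval.

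Slc6a13 encodes GAT2, a carrier of GABA, taurine and betaine that in adult mice is found in liver and kidney. It read 8.23, 7.77 and 7.92 in KO, against 9.36, 9.06 and 9.06 in HET and 9.08, 9.23 and 8.73 in WT (log2 signal, arrays 1 to 3). All KO arrays lay below all others, and the level fell to 48.6% of WT (log2 difference -1.04 ± 0.15 by limma, SE over 3 arrays a genotype, adjusted p = 0.00292). Slc6a12, which encodes the betaine and GABA carrier BGT1, is the next protein-coding gene on mouse chromosome 6 (GRCm38.p6). It stood at 7.11, 7.42 and 7.40 in KO, 6.89, 7.11 and 7.42 in HET and 6.95, 6.84 and 7.08 in WT. The KO arrays were above the WT arrays but overlapped HET, and the log2 difference from WT of 0.35 (95% interval 0.04 to 0.66) did not pass (adjusted p = 0.0937). The neighbouring genes thus had differences of opposite sign, of which the negative one passed.

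Slc6a18 and Slc6a19 also lie next to each other, on chromosome 13, and encode neutral amino acid carriers of the brush border of kidney (both) and intestine (Slc6a19). Slc6a18 read 7.25, 6.95 and 7.01 in KO, 7.98, 8.10 and 7.80 in HET and 7.86, 8.01 and 7.43 in WT. Slc6a19 read 7.12, 7.13 and 6.67 in KO, 7.79, 7.78 and 7.59 in HET and 7.62, 7.94 and 7.25 in WT. For both genes WT 3 was the lowest of the WT arrays and still lay above every KO array. Slc6a18 fell by 0.70 ± 0.15 (limma adjusted p = 0.0118) and Slc6a19 by 0.63 ± 0.18 (adjusted p = 0.0345). The Slc6a19 call was lost without KO 2, KO 3, HET 1, HET 2, WT 1 or WT 2 (adjusted p from 0.0511 to 0.104), without KO 1 and WT 2 at once (0.071), and with only KO and WT arrays in the model (adjusted p = 0.0778). In kidney, collectrin (Cltrn) brings both proteins to the membrane. Cltrn did not pass (log2 0.04, adjusted p = 0.896), at 7.10, 6.89 and 6.49 in KO, 7.12, 6.66 and 6.57 in HET and 6.88, 7.02 and 6.47 in WT.

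Slc6a4 encodes the serotonin transporter, the target of the common antidepressants. Its values were 9.82, 9.84 and 9.41 in KO, 10.59, 10.62 and 10.54 in HET and 10.42, 10.52 and 10.37 in WT. The HET arrays lay above the WT arrays and the KO arrays below both. In KO it fell to 59.6% of WT (log2 -0.75 ± 0.11, adjusted p = 0.00275), whereas the difference of HET from WT, 0.15, did not pass (adjusted p = 0.939). Slc6a2, the norepinephrine transporter, and Slc6a3, the dopamine transporter, are the other monoamine carriers. Slc6a3 was dim on 5 of 9 arrays and did not pass. Slc6a2 is described with the marker lists.

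Slc6a17 encodes a vesicular carrier of neutral amino acids known from neurons. It read 7.04, 7.45 and 7.45 in KO, 7.11, 7.14 and 7.21 in HET and 6.86, 6.77 and 7.08 in WT. KO 1 lay within the WT range, so the groups overlapped, and the rise of 0.41 ± 0.12 (limma adjusted p = 0.0363) was lost without KO 2, KO 3, HET 1, HET 2, WT 1 or WT 2 (adjusted p from 0.0565 to 0.118), with no filter on dim genes (0.0526) and with only KO and WT arrays in the model (0.0836). The taurine carrier Slc6a6 and the creatine carrier Slc6a8 did not pass.

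**Figure D3:**
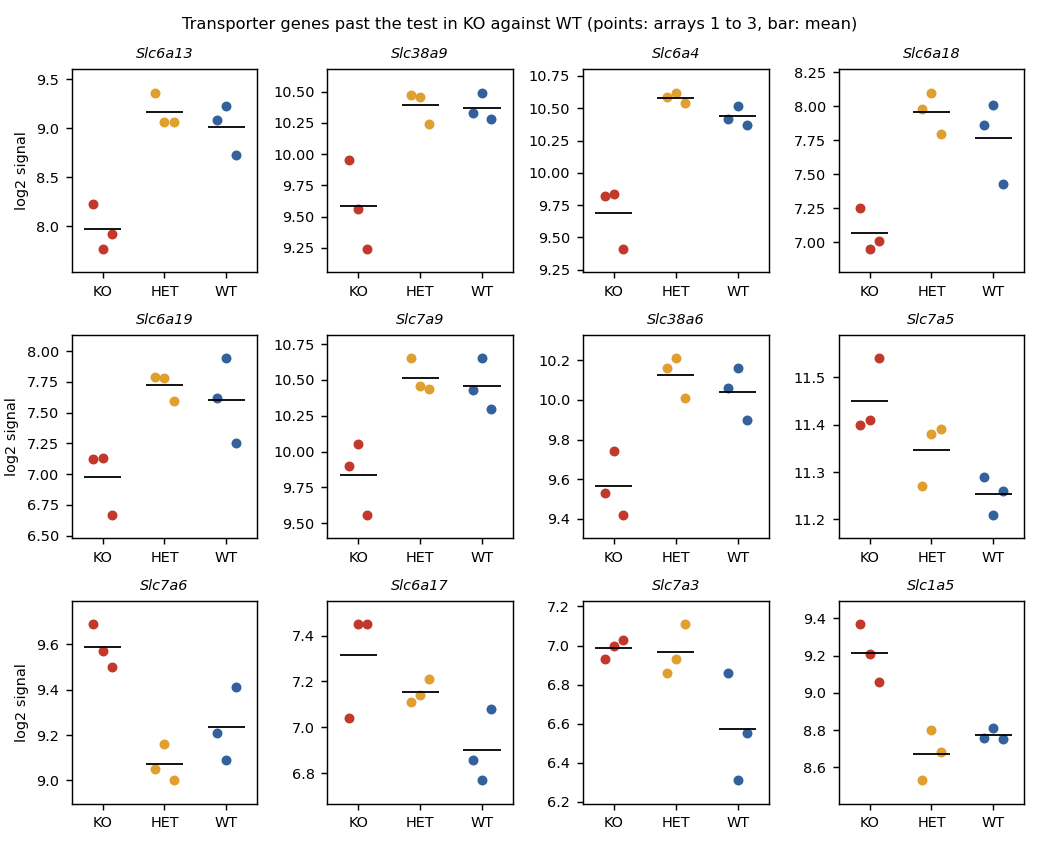
Log2 signal (vertical axis, a separate scale for each gene) of the 12 transporter genes past the test in KO against WT, with 3 arrays per genotype as points and the mean as a bar. The 7 genes lower in KO come first and leave a gap between KO and the other genotypes, while Slc7a5, Slc6a17 and Slc7a3 in HET lie between KO and WT or beside KO.

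The lysosomal membrane protein Slc38a9 carries amino acids out of the lysosome and signals arginine to mTORC1, the kinase complex that couples growth to nutrients. It read 9.95, 9.56 and 9.24 in KO, 10.47, 10.46 and 10.24 in HET and 10.33, 10.49 and 10.28 in WT. KO 1 was the closest of the KO arrays to the others, and none overlapped. The level fell to 58.2% of WT (log2 -0.78 ± 0.16, limma adjusted p = 0.00912). Over the alternatives the difference ran from -0.96 (without KO 1) to -0.48 (mean of the gene's probe sets), with every adjusted p under the threshold. A further Slc38a9 probe set read 7.38, 7.31 and 7.09 in KO, 7.51, 7.38 and 7.46 in HET and 7.33, 7.71 and 7.29 in WT, a smaller difference (-0.18) in which KO and WT overlapped, so the probe sets of this gene disagree in size. Slc38a6, a member of the same family whose substrates are less well known, read 9.53, 9.74 and 9.42 in KO, 10.16, 10.21 and 10.01 in HET and 10.06, 10.16 and 9.90 in WT, again without overlap. It fell by 0.48 ± 0.10 (adjusted p = 0.0109). Leaving out WT 2 and KO 1 at once ended the Slc38a6 call (adjusted p = 0.0555).

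The plasma membrane carriers of glutamine and other small neutral amino acids in the Slc38 family did not pass. Slc38a1, Slc38a2 and Slc38a4, the system A carriers, follow each other on chromosome 15. Slc38a1 stood at 10.17, 10.03 and 10.74 in KO, 9.59, 9.99 and 9.55 in HET and 9.78, 9.71 and 10.14 in WT (log2 difference of KO from WT 0.44, 95% interval -0.01 to 0.89, adjusted p = 0.14). Slc38a2, which cells raise when amino acids are short, read 11.37, 11.26 and 11.46 in KO, 11.22, 11.33 and 11.21 in HET and 11.21, 11.25 and 11.24 in WT. Every KO value of Slc38a2 was above every WT value, by little (0.13, interval -0.02 to 0.28, adjusted p = 0.179). The imprinted gene Slc38a4 read 10.21, 10.79 and 11.26 in KO, against 10.53, 10.79 and 10.45 in HET and 10.45, 10.61 and 10.60 in WT, so that KO held both its lowest and its highest value. The lysosomal glutamine exporter Slc38a7 and the genes Slc38a8 and Slc38a10 did not pass.

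Among the light chains, Slc7a9 and Slc7a6 moved in opposite directions. Slc7a9 encodes b0,+AT, which takes up cystine and cationic amino acids at the brush border and is mutated in cystinuria. It read 9.90, 10.05 and 9.56 in KO, 10.65, 10.46 and 10.44 in HET and 10.43, 10.65 and 10.30 in WT. With no overlap, it fell to 65.0% of WT (log2 -0.62 ± 0.13, limma adjusted p = 0.0119). Its heavy chain in kidney, Slc3a1, was dim on all 9 arrays, at 6.17, 6.20 and 6.20 in KO, 6.49, 6.10 and 6.20 in HET and 6.19, 6.22 and 6.20 in WT, and was not tested. Signal of Slc7a9 above the dim line was thus measured on arrays where Slc3a1 was not above it.

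Slc7a6 encodes y+LAT2, an exchanger of cationic for neutral amino acids. It read 9.69, 9.57 and 9.50 in KO, 9.05, 9.16 and 9.0 in HET and 9.21, 9.09 and 9.41 in WT. Every KO array lay above the others, and the rise was 0.35 ± 0.09 (limma adjusted p = 0.0243). That call was lost without KO 1, KO 2, WT 1 or WT 2 (adjusted p from 0.051 to 0.0813), without WT 2 and KO 1 together (0.112), with arrays centred on their medians (0.0623) and with only KO and WT arrays in the model (0.0554). Slc7a5 encodes LAT1, the main carrier of large neutral amino acids in growing cells. Its values were 11.40, 11.41 and 11.54 in KO, 11.27, 11.38 and 11.39 in HET and 11.29, 11.21 and 11.26 in WT, and the KO values lay just above the rest. Its rise of 0.20 ± 0.06 (adjusted p = 0.0481) held without KO 1 and was lost without any other single array (adjusted p from 0.0577 to 0.143), with the replicate block (adjusted p = 0.0601) and with arrays centred on their medians (0.13, adjusted p = 0.178). In all, the Slc7a5 call was lost under 14 alternatives, among them only KO and WT arrays in the model (0.0852).

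The other light chains that pair with Slc3a2 did not pass. Slc7a7, y+LAT1 of the basolateral membrane, read 11.15, 10.81 and 10.54 in KO, 11.07, 11.12 and 11.07 in HET and 11.06, 11.15 and 11.03 in WT. Slc7a8, LAT2 of the same membrane, read 11.95, 11.66 and 11.33 in KO, 11.99, 12.07 and 11.84 in HET and 11.94, 12.02 and 11.89 in WT. In both, KO 1 lay among the WT values and KO 2 and KO 3 lay below them. The log2 differences were -0.25 (95% interval -0.54 to 0.04, adjusted p = 0.192) and -0.30 (-0.61 to 0.01, adjusted p = 0.142), and both genes were called lower without KO 1. The shared heavy chain Slc3a2, also known as CD98, read 12.45, 12.40 and 12.35 in KO, 12.61, 12.60 and 12.51 in HET and 12.51, 12.54 and 12.51 in WT. The KO values were the lowest, by 0.12 (interval -0.24 to 0.01, adjusted p = 0.154). Slc7a11, the cystine and glutamate exchanger xCT, was dim on all 9 arrays, with 4.77 on each KO array, 4.77 to 4.96 in HET and 4.75 to 4.77 in WT.

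The cationic amino acid transporters work without a heavy chain. Slc7a3 (CAT3), an X-linked gene, read 6.93, 7.0 and 7.03 in KO, 6.86, 6.93 and 7.11 in HET and 6.86, 6.31 and 6.55 in WT. KO lay above WT by a narrow gap at WT 1 and overlapped HET, and WT 2 was below the dim line. The rise of 0.41 ± 0.13 (limma adjusted p = 0.0455) held without WT 1 and was lost without any other single array (adjusted p from 0.0501 to 0.129), with the replicate block (adjusted p = 0.0555) and with the Eif2s3y level as a covariate (adjusted p = 0.0624). With array weights the difference was 0.15 (adjusted p = 0.359), and 17 alternatives in which Slc7a3 was tested ended the call. With the dim line set at the array median, Slc7a3 was too dim to be tested. Slc7a2 (CAT2) read 6.31, 6.47 and 6.60 in KO, 6.60, 6.68 and 6.61 in HET and 6.59, 6.67 and 6.77 in WT, so that KO 3 lay among the other genotypes, and 2 KO arrays were dim. Its difference of -0.22 (95% interval -0.40 to -0.03) did not pass (limma adjusted p = 0.0821), but was called with arrays centred, with quantile normalization, with cyclic loess, without KO 3 and with the Eif2s3y covariate (adjusted p from 0.0172 to 0.0359). Slc7a1 (CAT1), the widely expressed member, and Slc7a4 did not pass.

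In the Slc1 family the rise was in Slc1a5, which encodes ASCT2, a sodium-dependent exchanger that brings glutamine into cells. It read 9.37, 9.21 and 9.06 in KO, 8.53, 8.80 and 8.68 in HET and 8.76, 8.81 and 8.75 in WT. Every KO array lay above every other array, and the level rose to 136% of WT (log2 0.44 ± 0.09, limma adjusted p = 0.0101). The related exchanger Slc1a4 did not pass, nor did the glutamate transporters Slc1a3 and Slc1a6. Slc1a1, the glutamate and cysteine carrier EAAT3, stood at 6.67, 6.57 and 7.14 in KO, 7.19, 7.31 and 7.10 in HET and 7.17, 7.16 and 7.14 in WT. KO 3 was at the level of WT and the other KO arrays below it (-0.36, 95% interval -0.66 to -0.06, adjusted p = 0.0785). Slc1a1 was called lower with arrays centred, with quantile normalization, with cyclic loess, with array weights and without KO 3 (adjusted p from 0.00577 to 0.0436).

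The tested Slc36 and Slc43 genes had negative differences that did not pass. Slc36a4 read 8.29, 8.24 and 8.39 in KO, 8.47, 8.53 and 8.24 in HET and 8.45, 8.63 and 8.63 in WT, with KO below WT and overlapping HET (-0.26, 95% interval -0.47 to -0.06, adjusted p = 0.0627). Slc36a4 was called lower with arrays centred (0.0371) and without HET 3 (0.0364). Slc36a1, the lysosomal carrier PAT1, read 9.73, 9.87 and 9.60 in KO, 10.20, 10.02 and 9.95 in HET and 9.97, 10.10 and 9.80 in WT (-0.23, interval -0.46 to 0.01, adjusted p = 0.145). Its neighbours on chromosome 11, Slc36a2 and Slc36a3, were dim on all 9 arrays. Slc43a2 (LAT4), which lets essential neutral amino acids leave epithelial cells, read 10.64, 10.46 and 10.11 in KO, 10.87, 10.65 and 10.69 in HET and 10.65, 10.75 and 10.64 in WT (-0.28, adjusted p = 0.131). KO 1 equalled the lowest WT value and KO 3 lay farthest below.

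For HET against WT, limma called 0 of the 43 transporter genes and 0% of all genes. Rnh1 itself did not pass there (log2 -0.62, limma adjusted p = 0.939), although every HET array read below every WT array. The count of 0 therefore does not show that HET and WT were alike. At an unadjusted p under 0.05 there were 2 of 43, Slc6a2 and Slc7a3, and 327 of 13207. The HET differences ran from -1.47 (Slc6a2) to 0.39 (Slc7a3), with a median of 0.05. HET and WT arrays did not overlap in 2 genes that were higher in HET (Slc6a4 and Slc6a17) and in 0 that were lower, against 4.25% and 5.98% of all genes, 10.2% together. For KO against HET, 2 transporter genes rose (Slc1a5 and Slc7a6) and 7 fell, the same 7 as against WT, where 8.17% of all genes rose, 13.6% fell and 21.8% were called in all. These 9 are 20.9% of the 43. KO and HET arrays did not overlap in 4 genes that were higher in KO and 11 that were lower, 15 of 43, against 15.7%, 21.4% and 37.1% of all genes. Both comparisons share the KO arrays. Against HET, Slc6a13 differed by -1.19 (limma adjusted p = 0.0017), Slc6a4 by -0.89 (0.00143), Slc6a18 by -0.89 (0.00442), Slc38a9 by -0.81 (0.00815), Slc6a19 by -0.75 (0.0184), Slc7a9 by -0.68 (0.00857) and Slc38a6 by -0.57 (0.0056). Slc1a5 was higher by 0.54 (0.00445) and Slc7a6 by 0.52 (0.00528). Slc6a19 was lost without KO 3, HET 1 or HET 2. Without KO 1, 13 fell against HET.

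Several transporters had their extreme values on the same arrays as marker lists of single cell types, and the part of these cell types in the genotype differences was not tested. These genes were named after their values were seen. The visceral endoderm list averaged 11.35, 11.27 and 11.09 in KO, 11.44, 11.38 and 11.28 in HET and 11.37, 11.39 and 11.33 in WT, so KO 3 was the lowest array and KO 1 lay among WT. KO 3 was also the lowest array for Slc38a9, Slc6a4, Slc6a19, Slc7a9 and Slc38a6 among the genes that fell, and for Slc7a7, Slc7a8 and Slc43a2, which did not pass. Slc6a13 and Slc6a18, which also fell, were lowest on KO 2. Erythroid markers, of which 8 of 10 were measured, averaged 10.74, 10.21 and 10.28 in KO, 10.64, 10.72 and 11.02 in HET and 10.99, 10.74 and 10.91 in WT, so HET 3 was highest and KO 2 lowest. Of these markers 4 of 8 fell in KO, where 15.2% of all genes fell, among them Alas2 (-0.89, adjusted p = 0.00884). The glycine transporter Slc6a9, which feeds heme synthesis in red cell precursors, read 10.27, 9.50 and 9.69 in KO, 10.13, 10.37 and 10.74 in HET and 10.51, 10.17 and 10.46 in WT. Slc38a5, an X-linked carrier of glutamine and glycine, read 9.39, 8.37 and 8.56 in KO, 9.01, 9.30 and 9.78 in HET and 9.43, 9.16 and 9.36 in WT. In both genes HET 3 was the highest array and KO 2 the lowest, as in the marker list. The same held for the neutral amino acid carrier Slc43a1, at 10.07, 9.57 and 9.81 in KO, 9.73, 10.06 and 10.40 in HET and 10.22, 9.90 and 10.14 in WT. It held as well for Slc43a3, known as a nucleobase carrier, at 11.61, 11.27 and 11.38 in KO, 11.46, 11.54 and 11.74 in HET and 11.66, 11.52 and 11.62 in WT. None of these 4 passed in KO against WT, with differences of -0.56 (Slc6a9, adjusted p = 0.0847), -0.54 (Slc38a5, 0.166), -0.27 (Slc43a1, 0.303) and -0.18 (Slc43a3, 0.224). Slc6a9 and Slc38a5 were called lower without KO 1.

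**Figure D4:**
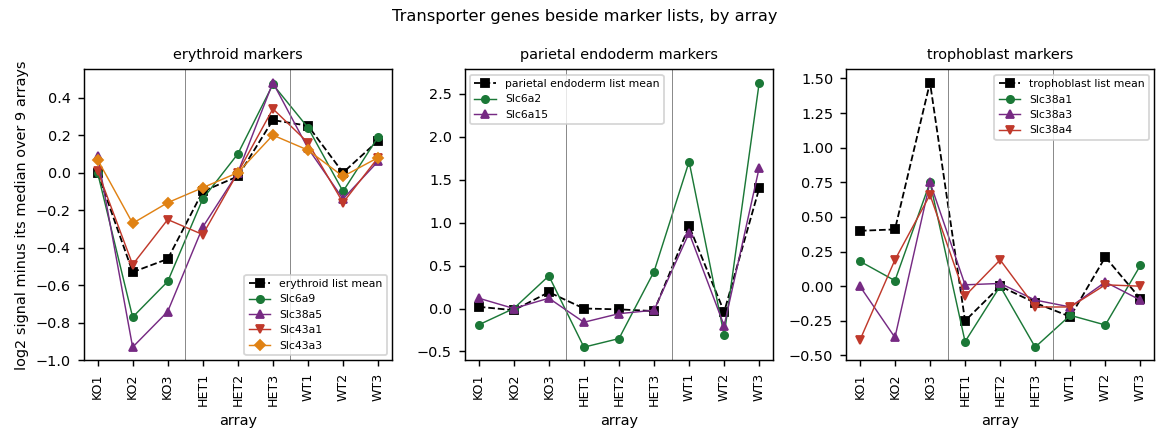
Log2 signal of each gene or marker list mean on the 9 arrays (horizontal axis), minus its own median over the arrays (vertical axis), beside erythroid, parietal endoderm and trophoblast markers. HET 3 and KO 2 are the extremes of the erythroid panel, WT 1 and WT 3 stand out in the parietal endoderm panel, and KO 3 stands out in the trophoblast panel.

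Slc6a2 varied most among the WT arrays, at 8.36, 6.34 and 9.28, against 6.46, 6.65 and 7.03 in KO and 6.20, 6.30 and 7.08 in HET. Slc6a15, a branched-chain amino acid and proline carrier of neurons that was dim on 8 of 9 arrays, read 5.56, 5.44 and 5.56 in KO, 5.28, 5.38 and 5.42 in HET and 6.32, 5.24 and 7.08 in WT. WT 1 and WT 3 were thus high in both genes and WT 2 was at the level of the other genotypes. A list of 11 genes of the parietal endoderm, the cells that lay down Reichert's membrane next to the trophoblast, was written after this was seen. It averaged 9.58, 9.54 and 9.75 in KO, 9.56, 9.55 and 9.53 in HET and 10.52, 9.52 and 10.96 in WT, with the same WT arrays high. In KO 2 of its 11 members passed lower, where 15.2% of all genes did. Within HET, Slc6a2 was highest on HET 3, where the list was lowest. The Slc6a2 difference in KO (-1.28, 95% interval -2.67 to 0.11) did not pass (adjusted p = 0.16) and was called without WT 2.

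The trophoblast list, of which 4 of 8 genes were measured and Tpbpa was dim on most arrays, averaged 8.0, 8.01 and 9.07 in KO, 7.35, 7.60 and 7.48 in HET and 7.38, 7.81 and 7.51 in WT. KO 3 was the highest array of this list and also for Slc38a1, Slc38a4 and the glutamine carrier Slc38a3, while within WT the list was highest on WT 2, where Slc38a1 was lowest. The genes of the list differed. In KO, Tpbpa read 5.90, 4.92 and 7.84 and Ascl2 6.48, 7.84 and 8.91, but Cdx2 read 8.88, 8.80 and 8.68. Hand1, at 10.74, 10.49 and 10.85 in KO, is also a marker of extraembryonic mesoderm. Slc38a3 read 7.56, 7.19 and 8.31 in KO, 7.57, 7.58 and 7.46 in HET and 7.41, 7.59 and 7.46 in WT. Without KO 3 the differences of Slc38a3 and Slc38a4 from WT changed sign, to -0.11 and -0.05 (0.20 and 0.20 with all arrays). A maternal decidua list averaged 9.21, 9.04 and 9.34 in KO, 8.57, 9.26 and 8.61 in HET and 9.01, 9.07 and 9.34 in WT. Within each genotype this list was highest on KO 3, HET 2 and WT 3, as Slc38a1 was. Its gene Prl8a2 read 11.34, 9.75 and 10.72 on these arrays, but 7.18 on HET 3 and less on HET 1. Within WT, Slc38a3 and Slc38a4 were instead highest on WT 2. The part of maternal tissue was not tested.

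Beyond these families, 20 of 27 listed genes for other amino acid and peptide carriers were tested, of which 9 fell and 0 rose in KO (median -0.15), where 15.2% of all genes fell and 8.27% rose. They include exporters of the lysosome, Slc17a5 (sialic acid and acidic amino acids), lower by 0.76 ± 0.08 (limma adjusted p = 0.00132), and the cystine exporter Ctns, lower by 0.62 ± 0.13 (adjusted p = 0.00926). The mitochondrial aspartate and glutamate carrier Slc25a13 fell by 0.45 ± 0.06 (adjusted p = 0.00222) and Slc6a20b, an Slc6 gene whose suffix letter leaves it outside the name rule, by 0.71 ± 0.12 (adjusted p = 0.00403). Slc17a5 read 9.60, 9.59 and 9.72 in KO, 10.48, 10.62 and 10.35 in HET and 10.35, 10.51 and 10.35 in WT, and KO was clear of both other groups.

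Of 8 tested genes for partners of the transporters and brush border peptidases, 4 fell and 0 rose (median -0.34), against the same 15.2% and 8.27% of all genes. These were the peptidases Enpep, lower by 0.79 ± 0.08 (limma adjusted p = 0.00102), Dpp4, by 0.57 ± 0.09 (0.00389), and Anpep, by 0.42 ± 0.11 (0.0256), and the scaffold gene Pdzk1, by 0.65 ± 0.11 (0.00414). Anpep lost its call without KO 2, KO 3 or WT 2 (adjusted p from 0.0646 to 0.0671) and without WT 2 and KO 1 together (0.0605). Enpep read 8.89, 8.83 and 8.79 in KO, against 9.57, 9.53 and 9.49 in HET and 9.51, 9.78 and 9.58 in WT. On the same arrays 1 of 11 tested visceral endoderm markers fell (Afp, by 0.33, adjusted p = 0.00814), while 11 of 11 had a difference below 0 (list median -0.15).

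In the pathway that reports amino acids to mTORC1, 5 of 34 tested genes fell, 1 rose and 28 did not pass (median -0.09), a share of falls near the 15.2% of all genes and a share of rises below 8.27%. The falls include the GTPase gene Rragc, which Slc38a9 contacts through the Rag complex, at -0.37 ± 0.06 (limma adjusted p = 0.00504), Fnip1 at -0.44 ± 0.08 (0.00579), Sec13 at -0.33 ± 0.05 (0.00389) and Mtor at -0.31 ± 0.06 (0.0109), of which Mtor lost its call without WT 1 (0.0516). Among genes of the amino acid response through the kinase Gcn2 and the factor Atf4, 7 of 21 rose, 4 fell and 10 did not pass (median 0.17), where 8.27% of all genes rose and 15.2% fell. The lists share Sesn2 (0.31, limma adjusted p = 0.0335), which is the 1 rise of the mTORC1 list and is counted again among these 7. The transcription factors Ddit3 and Atf5 rose by 0.38 ± 0.06 (adjusted p = 0.00451) and 0.33 ± 0.08 (0.0169), and Atf5 lost its call without WT 1 (0.0602), without WT 2 (0.0558) and without both WT 2 and KO 1 (0.0773). The synthesis enzymes Aldh18a1, for proline, and Psat1, for serine, fell by 0.54 ± 0.07 (0.00166) and 0.41 ± 0.06 (0.003). Genes of this list thus passed in both directions.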

How the data were processed

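Each deposited value is a log2 signal of 1 probe set. The authors used RMA, in Expression Console 1.2.1.20 from Affymetrix (source: the submitters' processing notes). The labels' protocols give 100 ng of RNA as input and 5.5 µg of cDNA for labelling. No source used here names the build of the array annotation. Of 28350 probe sets, 21780 named 1 gene, 1618 several and 4952 none in the probe table, and the last 2 kinds were left out. All genes entered 1 limma 3.58.1 model (R 4.3.3) with genotype as the factor, eBayes defaults, and p-values adjusted over the 13207 genes tested. On simulated data of 13207 genes for KO against WT, 58 of 100 changes of 0.5 (log2) and 93 of 100 changes of 1 were recovered, with 9 false calls. The simulation used independent normal noise and no other changed genes, whereas 23.5% of genes were called in the data. These rates therefore need not hold for the data. The number of arrays limits the precision.

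The members, lists and alternatives were chosen with earlier results of these data known. Values per array are given for each called gene, the tested gene with the smallest p in each family, and the heavy chains. They are also given for the light chains Slc7a5, Slc7a7, Slc7a8, Slc7a9 and Slc7a11. For up to 4 genes per pathway list the difference of KO from WT is given, with values per array only for Slc17a5 and Enpep. Other genes were named after their values were seen. Replicate numbers did not pair the arrays throughout: deviations of same-numbered KO and WT arrays correlated at -0.14, -0.23 and 0.36. The correlations were -0.06, 0.35 and 0.42 for HET and WT, and 0.21, -0.26 and 0.18 for KO and HET. Arrays numbered 3 matched their own number best in every comparison.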

Additional observations from a re-analysis of the deposited data

How the results depend on the processing

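In all 21 alternatives were tried, with the tested genes kept as they were when arrays were left out. For KO against WT, 5 rose and 7 fell. The number that rose was 2 with no filter, 2 with arrays centred on their medians, 8 with array weights (whose iteration stopped before full convergence), 1 with only the 2 genotypes compared, 3 without WT 2 and KO 1 together and 3 with the Eif2s3y covariate, both of these chosen after seeing the data, and 1 to 6 with single arrays left out. The number that fell was 17 with array weights and 6 to 12 with single arrays left out. With array weights 43.6% of all genes were called, against 23.5%. With arrays centred, 2 rose and 10 fell, and over all genes 577 rose and 2529 fell, against 1092 and 2009. For KO against HET, 2 rose and 7 fell, against 4 and 13 without WT 2 and KO 1 together, 15 lower with array weights, and 2 to 3 higher and 6 to 13 lower with single arrays left out. With the replicate block, 4 rose and 7 fell in KO against WT, and Slc7a3 and Slc7a5 lost their calls, while Slc6a12 gained one. HET against WT gave 0 calls among transporters under every alternative. Of the named genes, 2 changed sign, both without KO 3. With single arrays left out, Slc38a3 ran from -0.11 to 0.45 and Slc38a4 from -0.05 to 0.47. Of the 13 tested transporters given no value for KO against WT, with differences from -0.08 to 0.19, 9 changed sign under some alternative and 1, Slc1a2, was called under some. The causes were not tested. Signal near the dim line limits Slc7a3 and the other genes dim on some arrays.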

Other observations

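Slc38a1 also had a further probe set, which read 7.36, 6.77 and 7.37 in KO, 6.69, 6.99 and 6.63 in HET and 6.76, 7.03 and 7.15 in WT, with a difference of KO from WT of 0.18 against 0.44 for the brighter one. Neither separated KO from WT. Without KO 1, the array of the KO group that lay nearest to WT on the first principal component, 18 transporter genes were called in KO against WT, 6 higher and 12 lower, and 10 of the 12 genes called with all arrays were among them. Of all genes, 29.1% were then called, against 23.5% with all arrays. The genes gained were Slc1a2, Slc38a4, Slc38a5, Slc43a2, Slc6a12, Slc6a9, Slc7a7 and Slc7a8.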
